A study of Mus musculus with 22 samples.

Results

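Immediate early genes are genes whose transcripts rise quickly when a cell is stimulated, without new protein being made first. The set described here held 38 named genes of this class, together with stress response genes that are induced alongside them, and all 38 had reads among the 35596 genes measured. They were taken as a list of gene names and not by their values. They are ordered here by role: 8 subunits of AP-1 and its relatives (Fos, Fosb, Fosl2, Jun, Junb, Jund, Atf3, Maff), 11 zinc finger, nuclear receptor and related transcription factors (Egr1, Egr2, Egr3, Nr4a1, Nr4a2, Nr4a3, Klf2, Klf4, Klf6, Klf10, Myc), 7 genes of feedback on kinases and mRNA (Dusp1, Dusp2, Dusp5, Dusp6, Zfp36, Zfp36l1, Zfp36l2) and 12 genes of growth arrest, survival and stress (Ier2, Ier3, Ier5, Btg1, Btg2, Tob1, Gadd45b, Gadd45g, Mcl1, Sgk1, Csrnp1, Ppp1r15a). Of these, 37 passed the filter on low counts. Nr4a2, an orphan nuclear receptor, did not, and its group means lay between 0.407 and 1.65 TPM (a level scaled by transcript length and to a fixed library total).

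RNA was sequenced from microglia, macrophages that live in the retina, of mice aged 12 weeks. Every mouse, C57BL/6 wild type or Apoe-/- (without the lipid carrier apolipoprotein E), had dead neurons injected into the vitreous of the eye 24 hours earlier. There was no uninjected group. Cells were sorted as CD11b+, Ly6c- and Fcrls+, and then into phagocytic cells, which carried the Alexa488 label, and non-phagocytic cells, which did not. Wild-type mice gave 5 phagocytic and 5 non-phagocytic libraries, and Apoe-/- mice gave 6 of either kind, each library from a pool of 5 to 6 retinas. The strain of the knockout mice is labelled only Apoe KO, and the sex of a pool is not labelled.

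Most of these genes act downstream of MAP kinases, of calcium and cAMP signals, and of the serum response factor. Fos and Jun family proteins pair to form AP-1, a transcription factor that binds DNA, while Dusp phosphatases and Zfp36 proteins limit the response by removing phosphate from kinases or by destabilising mRNA. In microglia and other cells many of these transcripts are also known to rise while tissue is dissociated and cells are sorted. No undissociated sample was analysed here.

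Libraries held 1131045 to 3643499 estimated reads. Predicted genes made of satellite repeats took 9.14% to 51.7% of them, above 40% in 2 libraries, Apoe-/- non-phagocytic 2 and 5. Apoe itself lay between 869 and 5145 CPM (reads scaled to a common library size, with TMM adjustment) in wild-type and between 7.02 and 34.9 CPM in Apoe-/- libraries. All 10 microglia markers examined were present in each group. Over both genotypes 8 of these 10 had an estimate below 0 in phagocytic cells, with a median log2 fold of -0.29, and in Apoe-/- cells 9 of 10 (median -0.34). None of the 10 passed edgeR's test over both genotypes (2 at an unadjusted p below 0.05), and their part in the results below was not tested. Border macrophage markers moved with the sort. The summed level of 8 border macrophage markers was 494 to 970.3 CPM in wild-type phagocytic and 259 to 374 CPM in wild-type non-phagocytic libraries, and 409 to 1069 against 193 to 324 CPM in Apoe-/- libraries, and 6 of the 7 tested rose with the sort over both genotypes. Summed over 6 dendritic cell markers, the level was 11.1 to 82 against 16.8 to 372 CPM in wild type and 24.3 to 78.8 against 56.6 to 122 CPM in Apoe-/-. None of the 5 tested passed edgeR's test (4 at an unadjusted p below 0.05), and no marker of either list was at 0 over a whole group.

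Between the sorted populations, 8 of the 37 tested genes were lower in phagocytic than in non-phagocytic cells and 0 were higher, when the effect of the sort was averaged over both genotypes. These were Jun and Junb of AP-1, Egr1, Egr2 and Myc among the other transcription factors, the mRNA decay factors Zfp36 and Zfp36l2, and Btg2, a growth arrest gene. The largest falls among them were to 0.448 times the non-phagocytic level for Egr2, 0.46 times for Btg2 and 0.503 times for Egr1, as ratios of mean CPM. Calls were made with edgeR's quasi-likelihood test at a Benjamini-Hochberg adjusted p below 0.05 over 12415 genes. Among all genes tested, 2.36% passed in this comparison, and 0.564% passed with a lower level in phagocytic cells. A further 10 of these genes had an unadjusted p below 0.05, all with a negative estimate, but did not pass.

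Direction was shared more widely than the calls. Of the 37 estimates, 34 were below 0, with a median log2 fold of -0.36, whereas 52.3% of all genes tested were below 0. In wild-type cells 31 of 37 were below 0 (median -0.26), and in Apoe-/- cells 32 of 37 (median -0.50), against 50.8% and 52.3% of all genes. Wild-type and Apoe-/- libraries are separate samples, and 29 of the 37 genes were below 0 in both genotypes, 3 above 0 in both and 5 of opposite sign, where 33.3% of all genes tested were below 0 in both. Fewer cells with a high level and less RNA in every cell cannot be told apart in such pooled cells.

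**Figure D1:**
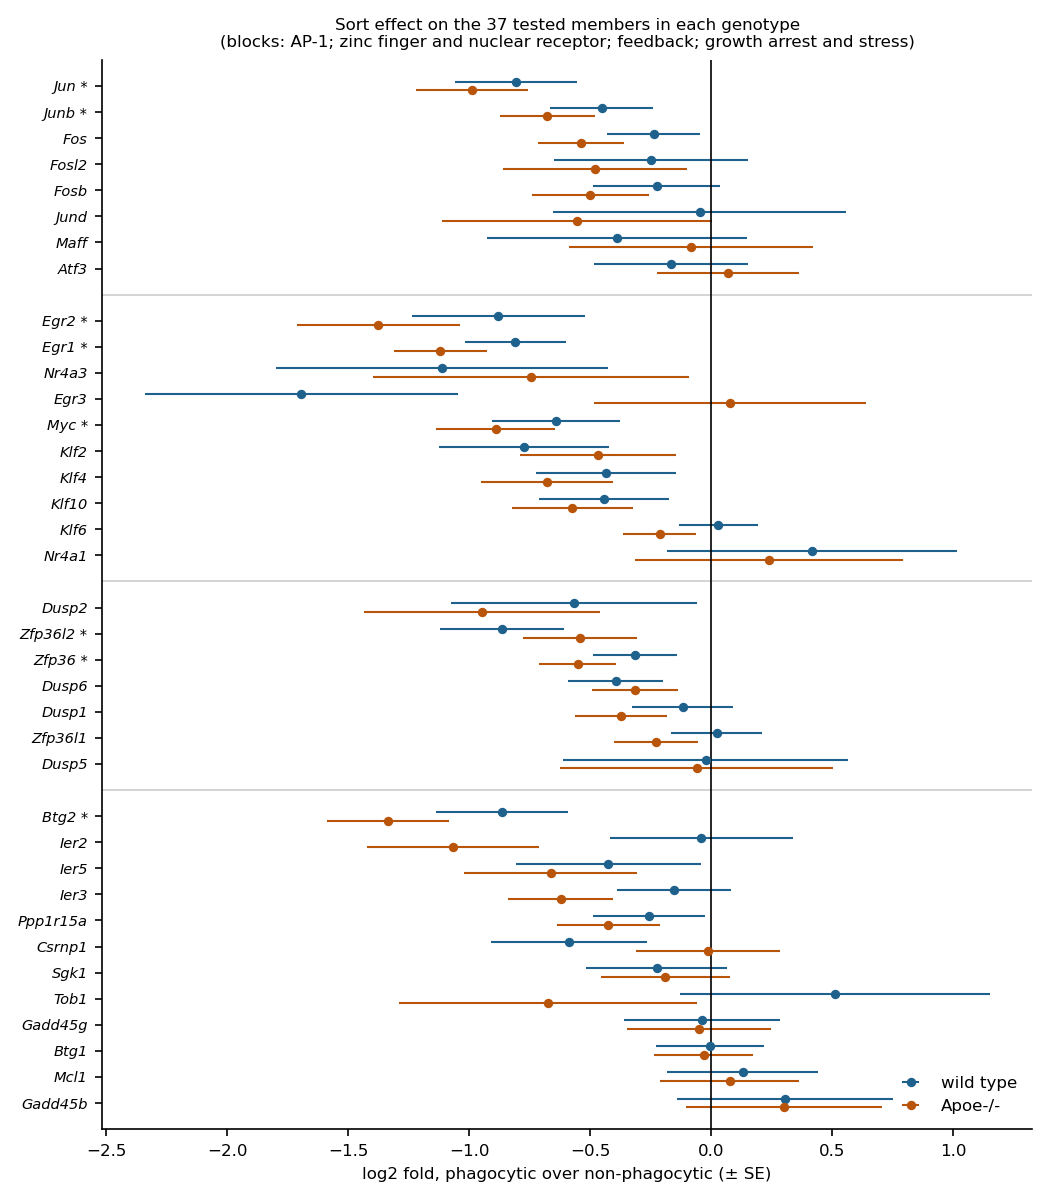
Log2 fold of phagocytic over non-phagocytic cells (x axis, ± SE) for each of the 37 tested genes (y axis, in 4 blocks by role) in wild-type (blue, 5 libraries against 5) and Apoe-/- cells (orange, 6 against 6). An asterisk marks the 8 genes that passed the test on the mean of both genotypes, and most points lie to the left of 0 in both colours.

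The promoters of 4 of the 8 lowered genes are shown, those with a usable window. These windows show which known response elements the 4 do and do not share. Egr1, Myc and Zfp36l2 matched no RefSeq promoter window by symbol, and the window chosen for Zfp36 lay wholly within annotated exons. Each is the 250 bases before the RefSeq start (build GRCm38.p6), read 5′ to 3′ on the strand of the gene, and none overlaps an annotated exon. Capitals mark matches to the motifs named after them.
Jun (chr4:95052223-95052472, minus strand): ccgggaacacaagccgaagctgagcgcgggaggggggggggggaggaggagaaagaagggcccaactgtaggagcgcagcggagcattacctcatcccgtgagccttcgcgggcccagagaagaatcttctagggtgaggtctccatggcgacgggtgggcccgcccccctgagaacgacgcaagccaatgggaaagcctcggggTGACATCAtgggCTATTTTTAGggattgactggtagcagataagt
Junb (chr8:84978749-84978998, minus strand): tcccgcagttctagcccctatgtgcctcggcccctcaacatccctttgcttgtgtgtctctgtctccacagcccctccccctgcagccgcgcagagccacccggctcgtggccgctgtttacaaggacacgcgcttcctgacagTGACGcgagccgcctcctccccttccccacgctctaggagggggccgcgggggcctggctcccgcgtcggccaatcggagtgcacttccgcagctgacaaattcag
Egr2 (chr10:67537619-67537868, plus strand, the window at the start of the transcript with most reads, of 5 in the table): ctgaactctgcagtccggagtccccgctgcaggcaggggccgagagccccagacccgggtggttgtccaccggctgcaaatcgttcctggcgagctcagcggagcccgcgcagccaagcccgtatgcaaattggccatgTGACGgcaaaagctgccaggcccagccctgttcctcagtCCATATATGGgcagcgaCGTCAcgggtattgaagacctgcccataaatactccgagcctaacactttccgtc
Btg2 (chr1:134079156-134079405, minus strand): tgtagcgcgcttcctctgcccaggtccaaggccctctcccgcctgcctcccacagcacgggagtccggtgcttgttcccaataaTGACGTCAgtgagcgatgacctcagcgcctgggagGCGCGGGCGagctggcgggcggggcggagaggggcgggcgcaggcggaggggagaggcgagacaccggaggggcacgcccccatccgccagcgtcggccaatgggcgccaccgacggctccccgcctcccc

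In Egr2 the capitals mark a CArG box, the binding motif of serum response factor, 72 to 63 bases before the start, and the core TGACG of the cAMP response element 111 to 107 bases and, on the other strand, 55 to 51 bases before it. Btg2 holds the whole cAMP response element TGACGTCA 166 to 159 bases before its start and an EGR site (GCGNGGGCG) 131 to 123 bases before it. Junb has 1 such core, 106 to 102 bases before the start. Jun has none of these motifs. It holds TGACATCA, a variant AP-1 site, 45 to 38 bases and a MEF2 box 33 to 24 bases before its start; these 2 motifs were added after its window had been seen. No single motif of this search was found in all 4 windows.

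Of the 38 genes, 32 matched the RefSeq promoter table by symbol, and each motif was searched on both strands in every window of a gene. Egr1, Egr3, Ier2, Klf10, Myc and Zfp36l2 did not match. A CArG box stood in 3 of the 32 (Dusp5, Egr2, Zfp36) against 1.62% of 27025 genes, and TGACGTCA in 4 (Btg2, Dusp1, Maff, Ppp1r15a) against 1.77%. For Zfp36 the window chosen lay wholly within annotated exons, an overlap that was checked only for lowered genes. The shorter TGACG, which lies within TGACGTCA, stood in 19 of 32 against 19.8% of genes. An EGR site was found in 11 of 32 against 5.33%. The AP-1 site TGANTCA (N being C or G) stood in 1, Csrnp1, against 5.16%. TGACATCA stood in 3 (Jun, Klf6, Maff) against 3.41%, and a MEF2 box in 3 (Atf3, Jun, Klf2) against 0.592%. In both counts the Jun match was known before the search, because these motifs were added after its window had been seen. A match shows only that the letters are present in the window. The shares of all genes were not matched to the set for the number of windows per gene or for base composition.

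Jun, an AP-1 subunit that can pair with itself or with Fos proteins, lay at 539, 877, 662, 472 and 476 CPM in wild-type non-phagocytic libraries 1 to 5 and at 399.8, 466, 361, 309 and 195 CPM in the phagocytic ones. Apoe-/- non-phagocytic libraries ran from 515 CPM over a median of 617 to 745 CPM, and phagocytic ones from 179.7 over 335 to 452 CPM. In neither genotype did the sorted populations overlap. The log2 fold was -0.81 ± 0.25 (SE) in wild type (edgeR adjusted p = 0.286), -0.99 ± 0.23 in Apoe-/- (adjusted p = 0.049) and -0.90 ± 0.17 for the mean (adjusted p = 0.00335). Its gene lies on chromosome 4 from 95049034 to 95052222 (GRCm38). The call in Apoe-/- cells alone was lost without any 1 of 11 of the 12 libraries (adjusted p up to 0.151).

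Junb, another Jun-family subunit of AP-1, was at 858, 1232, 953, 788 and 663 CPM in wild-type non-phagocytic and at 632, 750, 860.5, 600.2 and 439.7 CPM in wild-type phagocytic libraries, which overlap. In Apoe-/- cells the populations did not overlap, with 806, 915 and 1088 CPM as lowest, median and highest non-phagocytic values and 413, 573 and 797 CPM as the phagocytic ones. Its log2 fold was -0.45 ± 0.21 in wild type, -0.68 ± 0.19 in Apoe-/- and -0.56 ± 0.14 for the mean, where alone it passed (edgeR adjusted p = 0.0325). Junb lies on chromosome 8 from 84974484 to 84978718. The call was lost in 8 of 22 fits that each left out 1 library (adjusted p up to 0.0833).

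Fos, whose protein pairs with the Jun proteins, did not pass. It is described for that pairing, after its values had been seen. Its levels were 909.7, 912, 891, 699 and 638 CPM in wild-type non-phagocytic and 625, 798, 771, 679 and 557 CPM in wild-type phagocytic libraries. In Apoe-/- they were 577, 866 and 913 CPM (lowest, median, highest) against 366, 534 and 711 CPM, so that the populations overlapped in both genotypes. The mean log2 fold was -0.39 ± 0.13 (95% interval -0.66 to -0.12, edgeR adjusted p = 0.124). Fos passed in this comparison in 3 of 12 alternative settings, and in 0 of 22 fits that each left out 1 library. Among the other AP-1 genes the mean log2 estimates were -0.36 for Fosb, -0.36 for Fosl2, -0.30 for Jund, -0.24 for Maff, a small Maf protein, and -0.05 for Atf3, a stress-induced repressor, and 0 of these 5 passed. On the scale scaled by length, Junb had 303 to 557 TPM and Fos 242 to 419 TPM as group means, and Jund only 5.11 to 5.82 TPM.

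Egr1, a zinc finger factor of the early growth response family, had the smallest p of the set. Wild-type non-phagocytic libraries held 702, 879.8, 935, 411 and 617 CPM and phagocytic ones 439, 436, 505, 261 and 382 CPM, where 1 non-phagocytic library, number 4, lay within the phagocytic range. Apoe-/- non-phagocytic libraries lay between 776 and 1119 CPM (median 889) and phagocytic ones between 363 and 496 CPM (median 417), with no overlap. Egr1 fell by 0.96 ± 0.14 on the log2 scale for the mean of both genotypes (edgeR adjusted p = 0.000205) and by 1.12 ± 0.19 in Apoe-/- cells (adjusted p = 0.00624). The wild-type estimate was -0.81 ± 0.21 (adjusted p = 0.123). Of 10 fits that each left out 1 wild-type library, it passed in 1, without non-phagocytic library 4 (-0.95, adjusted p = 0.0249). In the other 9 it did not pass (adjusted p up to 0.3825).

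Its relative Egr2, known as a regulator of myelination and of lymphocyte and macrophage states, was far less abundant. It stood at 27.5, 30.7, 21.3, 11.9 and 18.2 CPM in wild-type non-phagocytic and at 7.42, 11.3, 14.6, 9.84 and 16.4 CPM in wild-type phagocytic libraries. Apoe-/- values ran from 15.3 over 31.6 to 34.3 CPM against 5.02 over 9.27 to 21.2 CPM. Populations overlapped in both genotypes, in Apoe-/- cells through phagocytic library 4 at 21.2 CPM. The log2 fold was -0.88 ± 0.36 in wild type, -1.38 ± 0.34 in Apoe-/- (edgeR adjusted p = 0.0659) and -1.13 ± 0.25 for the mean (adjusted p = 0.0112). Its gene spans 67535475 to 67542188 on chromosome 10. With counts scaled for transcript length the mean was -0.97 and did not pass (adjusted p = 0.102).

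Myc, a growth regulator that is also induced early, was at 84.6, 138, 159, 75.4 and 141 CPM in wild-type non-phagocytic and at 93.7, 70.5, 97.8, 52.2 and 70.2 CPM in wild-type phagocytic libraries. In Apoe-/- cells it ran from 41.2 over 111 to 129.8 CPM against 36.9 over 56.9 to 69.4 CPM. The wild-type populations overlapped, and in Apoe-/- cells a single non-phagocytic library, number 2 at 41.2 CPM, lay within the phagocytic range. The log2 fold was -0.64 ± 0.26 in wild type, -0.89 ± 0.25 in Apoe-/- and -0.77 ± 0.18 for the mean (edgeR adjusted p = 0.0194). Myc lies on chromosome 15 from 61985391 to 61990374. With limma on log2(FPKM + 1) its log2 fold was also -0.77 but did not pass (adjusted p = 0.294).

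The Krüppel-like factors and the orphan receptors of the Nr4a family did not pass. Klf2 (-0.62 ± 0.24), Klf4 (-0.56 ± 0.20) and Klf10 (-0.51 ± 0.18) had mean log2 estimates below 0 with unadjusted p below 0.05, while Klf6, at 67.3 to 94.8 TPM the most abundant of the 4, was at -0.09 ± 0.11. Nr4a1 (0.33 ± 0.41) and Nr4a3 (-0.93 ± 0.47) had wide errors; single libraries held between 10 and 203 reads of Nr4a1 and between 2 and 40 of Nr4a3. Of the 10 tested genes of this role, 3 passed, all lower, and the median log2 fold was -0.69, the lowest of the 4 roles. The medians of the AP-1, feedback and growth arrest groups were -0.36, -0.35 and -0.25.

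**Figure D2:**
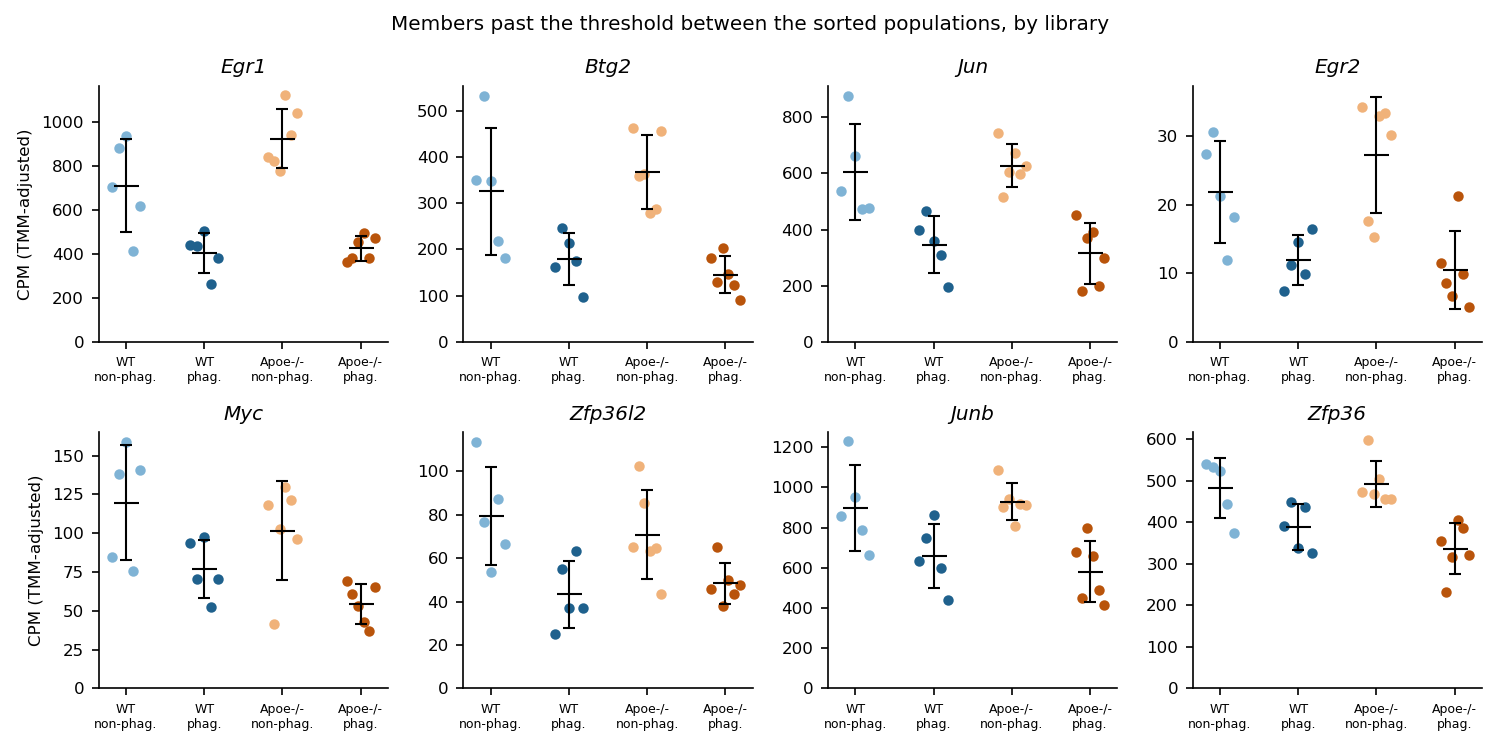
Level (y axis, TMM-adjusted CPM) of the 8 genes lower in phagocytic cells, 1 panel each, in the 4 groups (x axis). Each point is a library, the horizontal bar is the mean and the whiskers are the SD. The non-phagocytic libraries (light) lie above the phagocytic ones (dark) without overlap for Jun in both genotypes and for Egr1, Btg2, Junb and Zfp36 in Apoe-/- cells.

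Zfp36, also called tristetraprolin, binds AU-rich elements and speeds the decay of cytokine mRNA. It lay at 539.8, 534, 524, 445 and 374 CPM in wild-type non-phagocytic libraries and at 392, 449, 339, 436 and 327 CPM in wild-type phagocytic ones, which overlap. Apoe-/- libraries held 456, 470.4 and 598 CPM (lowest, median, highest) against 233, 338 and 405 CPM, which do not. The mean log2 fold was -0.43 ± 0.12 (edgeR adjusted p = 0.0465), the smallest of the 8 in size. This call was lost in 17 of 22 fits that left out 1 library (adjusted p up to 0.106). The gene spans 28376784 to 28380253 on chromosome 7.

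Its relative Zfp36l2 had wild-type values of 113, 76.7, 53.7, 87.3 and 66.3 CPM in non-phagocytic and 25, 55, 36.9, 63.3 and 36.9 CPM in phagocytic libraries. In Apoe-/- the ranges were 43.7 to 103 CPM (median 65.1) and 37.9 to 65.3 CPM (median 46.8). Both pairs of ranges overlap. Its log2 fold was -0.87 ± 0.26 in wild type, -0.54 ± 0.24 in Apoe-/- and -0.70 ± 0.17 for the mean (edgeR adjusted p = 0.0276), so that, unlike the other 7, its estimate was further from 0 in wild-type cells, a difference between genotypes that did not pass (0.32, 95% interval -0.39 to 1.04). Zfp36l2 lies on chromosome 17 from 84183931 to 84187947. The third family member, Zfp36l1, was at -0.10 ± 0.13 and did not pass.

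Among the Dusp genes, which encode phosphatases that switch off MAP kinases, 0 of 4 passed by edgeR, while 2 (Dusp2 and Dusp6) had an unadjusted p below 0.05. Dusp1 was the most abundant gene of the whole set, with group means of 459.9 to 703 TPM, and its mean log2 fold was -0.25 ± 0.14. Dusp6, which acts on ERK, was at -0.35 ± 0.13 (adjusted p = 0.18) and its 5 wild-type phagocytic libraries (191 to 236 CPM) all lay below the 5 non-phagocytic ones (248 to 335 CPM). Dusp2 was at -0.76 ± 0.35 and Dusp5, at 1.77 to 3.21 TPM, at -0.04 ± 0.41.

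Btg2, a member of the BTG/TOB family that slows cell division and promotes mRNA deadenylation, stood at 350.2, 532, 348, 218 and 181 CPM in wild-type non-phagocytic and at 163, 246, 214, 175 and 97.3 CPM in wild-type phagocytic libraries. Non-phagocytic libraries 4 and 5 lay within the phagocytic range. In Apoe-/- cells it ran from 278 over 360.4 to 464 CPM against 90.3 over 138 to 202 CPM, with no overlap. The log2 fold was -0.86 ± 0.27 in wild type (edgeR adjusted p = 0.297), -1.34 ± 0.25 in Apoe-/- (adjusted p = 0.0125) and -1.10 ± 0.19 for the mean (adjusted p = 0.000937). Btg2 spans 134075170 to 134079120 on chromosome 1. Its relatives did not pass: Btg1, at 18.3 to 26.8 TPM, had a mean log2 fold of -0.02 ± 0.15, and Tob1, at 0.899 to 2.38 TPM, one of -0.08 ± 0.44.

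Among the other genes of growth arrest, survival and stress 0 of 11 passed, and 4 had an unadjusted p below 0.05. These were Ier2 (-0.55 ± 0.26), Ier3 (-0.39 ± 0.16), Ier5 (-0.54 ± 0.26) and Ppp1r15a (-0.34 ± 0.16), which encodes the phosphatase subunit that reverses the stress-induced block of translation. Gadd45b (0.30 ± 0.30), a stress sensor, and Mcl1 (0.10 ± 0.21), which protects against apoptosis, were, with Nr4a1, the 3 genes with an estimate above 0. Gadd45g (-0.04 ± 0.22), the kinase gene Sgk1 (-0.21 ± 0.20) and Csrnp1 (-0.30 ± 0.22) complete the group.

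Within genotypes fewer genes passed. In wild-type cells 0 of 37 passed edgeR's test (9 at an unadjusted p below 0.05, and 1, Egr1, with DESeq2), where 0.209% of all genes tested passed and 0.0161% passed with a lower level in phagocytic cells. In Apoe-/- cells 3 passed, Egr1, Btg2 and Jun, all lower, where 0.467% of all genes passed and 0.0644% passed as lower. DESeq2 called 8 in that comparison. Every phagocytic library lay below every non-phagocytic one for 3 genes in wild type (Jun, Dusp6, Egr3) and for 5 in Apoe-/- cells (Egr1, Btg2, Jun, Junb, Zfp36), where 0.636% and 0.346% of all genes tested did so. The nearest wild-type libraries of Egr3 held 4.72 and 4.77 CPM, from 11 reads each. For 0 of the 37 did every phagocytic library lie above.

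The median of the 37 genes in each library, on a log2 scale relative to the mean of all 22, separated the sorted populations in all but 1 library. Wild-type non-phagocytic libraries lay between 0.11 and 0.35 and Apoe-/- non-phagocytic ones between 0.13 and 0.30. Wild-type phagocytic libraries lay between -0.19 and 0.15, and Apoe-/- phagocytic ones between -0.43 and -0.04. Phagocytic library 4 of the wild type, at 0.15, was the 1 phagocytic library inside the non-phagocytic range. In that library the summed microglia markers were the lowest of its group (5118 CPM, group median 11904). Its monocyte (883 CPM, median 216) and neutrophil marker sums (962 CPM, median 349) were the highest. Wild-type non-phagocytic library 4, whose omission let Egr1 pass in wild type, held 5425, 1073 and 756 CPM (medians 10090, 278 and 237). Whether this bears on the results was not tested. The border macrophage and dendritic marker sums and the microglia marker estimates are given above. The parts of border macrophages and of dendritic cells in these falls were not tested. A fit with the dendritic marker sum in the model was added after the data were seen. By group median that sum was itself lower in phagocytic cells (25.3 against 143 CPM in wild type, 26.2 against 78.3 CPM in Apoe-/-). Such a fit cannot separate the sort from these cells. In it 6 of the 8 passed. Zfp36 (log2 fold -0.47, edgeR adjusted p = 0.0869) and Zfp36l2 (-0.67, adjusted p = 0.117) did not. Without the 2 libraries richest in satellite reads 6 passed as well, and 5 passed without wild-type phagocytic library 5, in whose absence Junb, Zfp36 and Zfp36l2 were lost. With limma on log2(FPKM + 1), 2 passed, Egr1 and Btg2.

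**Figure D3:**
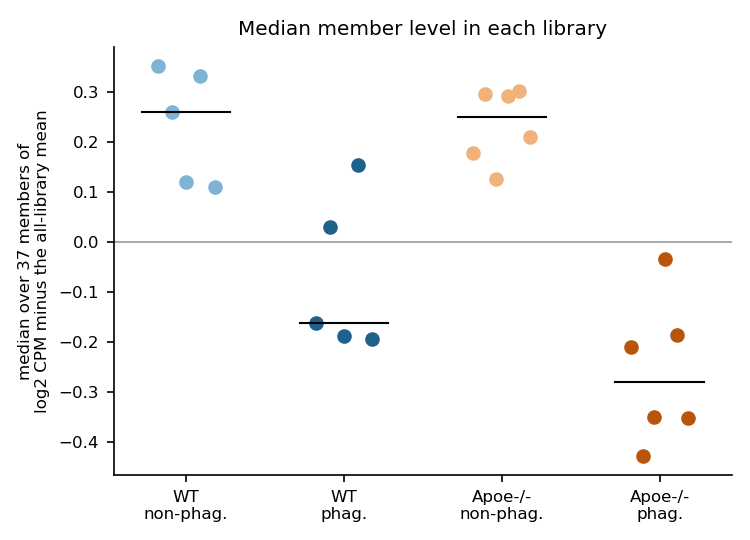
Median over the 37 tested genes of log2(CPM + 1) minus each gene's mean over all 22 libraries (y axis), by group (x axis). Each point is a library and the line is the median of the group. All 11 non-phagocytic libraries lie at or above 0.11, and 1 of 11 phagocytic libraries reaches that range.

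Loss of Apoe was compared within each sort. Among phagocytic cells 0 of 37 genes passed edgeR's test (2 at an unadjusted p below 0.05, Ier2 and Egr3, and 0 with DESeq2), where 0.0322% of all genes passed. Among non-phagocytic cells 0 passed (0 at an unadjusted p below 0.05, and 0 with DESeq2), where 0.0161% of all genes passed. The median log2 fold of Apoe-/- over wild type was -0.18 in phagocytic and 0.00 in non-phagocytic cells. The sort effect also did not differ between the genotypes for any of the 37 by edgeR, where 0% of all genes passed (1 of the 37, Egr3, at an unadjusted p below 0.05, and 0 with DESeq2). These tests do not show that the genotypes respond alike. For Egr1 the difference of the sort effect, Apoe-/- minus wild type, was -0.31 on the log2 scale with a 95% interval of -0.89 to 0.27, for Btg2 -0.47 (-1.23 to 0.29), and for Jun -0.18 (-0.88 to 0.51).

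Ier2 and Egr3 are described because they were nearest to a difference between genotypes, a choice made after their values had been seen. Ier2, a nuclear immediate early protein, lay at 125, 189.8, 213, 207 and 168 CPM in wild-type phagocytic libraries. In Apoe-/- phagocytic libraries it ran from 24.5 over a median of 44.4 to 176 CPM, and the highest, library 1, was the only 1 of the 6 inside the wild-type range. The log2 fold was -1.43 ± 0.37 (edgeR adjusted p = 0.288). Without that library it was -2.05 and passed (adjusted p = 0.00187), and with all libraries kept it passed in 2 of 11 alternative settings, without a filter and with limma on log2 CPM (adjusted p from 0.000559 to 0.511 over the 11). Non-phagocytic libraries held 147, 154, 182, 153 and 291 CPM in wild type and 55.6 to 217 CPM (median 147) in Apoe-/-, which overlap.

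Egr3, the least abundant tested Egr gene, held 11.3, 17.2, 4.85, 9.22 and 4.77 CPM in wild-type non-phagocytic and 3.12, 0.643, 4.72, 4.28 and 1.78 CPM in wild-type phagocytic libraries. Apoe-/- libraries ran from 2.52 over 9.53 to 14.4 CPM against 0.901 over 7.24 to 25.9 CPM. Wild-type populations did not overlap, but the nearest libraries, phagocytic 3 (4.72 CPM) and non-phagocytic 5 (4.77 CPM), held 11 reads each. Apoe-/- populations overlapped. The difference of the sort effect between genotypes was 1.77 ± 0.85 on the log2 scale (95% interval 0.02 to 3.52, unadjusted p = 0.0473, edgeR adjusted p = 0.9999). Libraries held only 1 to 48 reads of Egr3, and 87.6% of all its reads were assigned to a retained-intron transcript model. Such models also took 41.8% of the reads of Fosl2, 31.2% of Dusp1 and 27.6% of Fosb. For Dusp1 this share was 29.5 ± 4.75% (SD) in the phagocytic and 30.8 ± 5.1% in the non-phagocytic cells of wild-type mice (n = 5 each), and 27 ± 4.7% against 33.7 ± 5.63% in Apoe-/- mice (n = 6 each), with overlapping ranges.

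**Figure D4:**
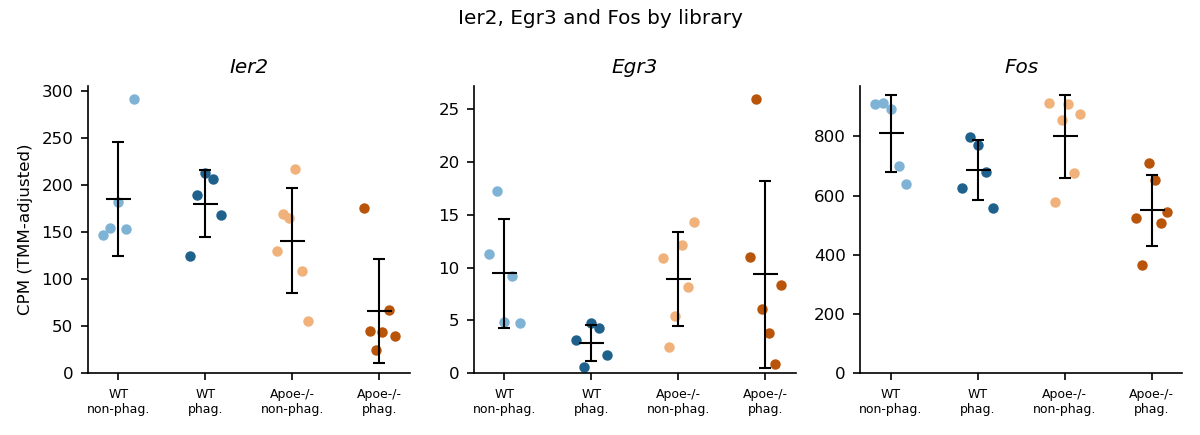
Level (y axis, TMM-adjusted CPM) of Ier2, Egr3 and Fos in the 4 groups (x axis). Points are libraries, bars the mean and whiskers the SD. For Ier2, 5 of 6 Apoe-/- phagocytic libraries lie below all wild-type phagocytic ones and the remaining library is at 176 CPM; the groups of Fos overlap.

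Gene lists around this set, in the same pathways, held 1 call in the sort comparison over both genotypes, where 2.36% of all genes tested passed. Of 44 other immediate early and stress genes (such as inhibitors of NF-kB, early cytokines and Id factors) 34 were tested. Of these, 0 passed edgeR's test over both genotypes in the sort comparison (9 at an unadjusted p below 0.05), with a median log2 fold of -0.07. Of the 34 estimates 18 were below 0 and 16 above, where 52.3% of all genes tested were below 0. Kinases and factors upstream, such as the MAP kinases, serum response factor and CREB, counted 28 genes, all tested, of which 0 passed (6 at an unadjusted p below 0.05) with a median of 0.09. Of 14 heat shock genes 13 were tested and 0 passed (2 at an unadjusted p below 0.05, median 0.01). A list of 18 genes held other bZIP factors, repressors of Egr proteins (Nab1, Nab2) and relatives of Btg2 (Tob2, Btg3). Of these, 15 were tested and 1 passed. This was Batf, a bZIP factor that pairs with Jun proteins. It rose from 19.9 CPM in non-phagocytic to 40.8 CPM in phagocytic cells (log2 fold 1.01 ± 0.25, edgeR adjusted p = 0.0290), with 0.97 ± 0.37 in wild type and 1.04 ± 0.34 in Apoe-/- cells, neither of which passed alone. Whether these lists differ from the set above was not tested.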

How the data were processed

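Transcript abundance was measured in 22 libraries by SMART-Seq2, which copies whole transcripts from small numbers of cells. The authors deposited estimated counts and TPM values per transcript (TPM being scaled by transcript length and to a fixed total) and FPKM values per gene (scaled by length and by depth), per the file headers. The submitters' processing notes name Salmon 1.4.0, R 4.0.3, DESeq2 1.30.1 and mm10 but no roles. Salmon shares reads among similar transcripts, so counts of near-identical genes are uncertain, and strand use is not given in the sources used here.

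Transcript counts were added up per gene with GENCODE release M21 (GRCm38, the same build as mm10) and rounded. Of 116248 transcripts, 176 did not match, and their reads (0.118% to 0.262% per library) were left out. The test was that of edgeR 4.0.16 under R 4.3.3 (TMM scaling, filterByExpr by group, quasi-likelihood test, 1 fit over 4 groups) and 12415 passed the filter. The 6 comparisons were the sort in each genotype and over both, the genotype in each sort, and the difference of the sort effect. Adjusted p-values (Benjamini-Hochberg) cover all genes tested, and the threshold was 0.05. The genes described and the lists beside them were chosen with earlier results of these data known. Levels are CPM (or TPM between genes, where satellite reads count in the total). All 38 genes are named. For those that passed, and for Fos, Ier2 and Egr3, chosen later, wild-type values are given for each library. Their Apoe-/- values are given as lowest, median and highest. Pools of retinas are the replicates; no counting intervals are given, because PCR reads here carry no molecular identifiers. Libraries within a group differed by more than sampling noise. The edgeR fit was also run on simulated counts with known changes, and its recovery of them is not given here. Alternatives were DESeq2 1.42.0, limma 3.58.1 on log2 CPM or on log2(FPKM + 1), RLE scaling, no filter, length-scaled counts, protein-coding transcripts, satellite and dendritic covariates, a replicate block and leaving out libraries.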

Additional observations from a re-analysis of the deposited data

Results flagged for a closer look

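In 11 of 148 combinations of gene and group (7.43%), 1 library lay far from the others of its group by Dixon's criterion, which chance alone meets in about 1 of 20 groups. Each had the highest level of its group, in CPM. Of these, 3 were in wild-type non-phagocytic library 1: Ier5 at 110.6 against 26.9 to 45.2 in the others, Klf2 at 107.8 against 32 to 52.6, and Jund at 24 against 3.47 to 9.22. Another 2 were in Apoe-/- non-phagocytic library 2, which is rich in satellite reads: Zfp36 at 598 against 456 to 506 and Jund at 42.9 against 2.7 to 13.8. Fosb was at 137 against 61.3 to 87.3 in Apoe-/- non-phagocytic library 4. Gadd45g was at 61.2 against 28 to 37 in wild-type phagocytic library 4 and at 100.8 against 22.1 to 44.1 in Apoe-/- phagocytic library 4. Atf3 was at 189 against 115 to 128 in wild-type phagocytic library 2. Ier2 was at 291 against 147 to 182 in wild-type non-phagocytic library 5, and at 176 against 24.5 to 67.6 in Apoe-/- phagocytic library 1.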

How the results depend on the processing

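Egr1 and Btg2 passed in the sort comparison over both genotypes under all 12 alternative settings and without each of the 22 libraries, and Jun, Egr2 and Myc without each of the 22. No direction of the 8 genes that passed turned under any setting run. Of the counts that moved by over 1.5 times or from 0, DESeq2 gave 1 gene of the set in wild type, 8 in Apoe-/- cells, and among all genes 102 in wild type, 180 in Apoe-/-, 533 over both, 24 for genotype in phagocytic cells and 2 for the difference. Without a filter it was 1 of the set (Ier2) for genotype in phagocytic cells, and among all genes 122 in wild type, 137 in Apoe-/-, 96 and 16 for genotype in phagocytic and non-phagocytic cells and 17 for the difference. With the satellite share as covariate 1 of the set passed in wild type, 6 in Apoe-/-, and 59 of all genes in wild type. With limma on log2 CPM 1 of the set and 11 of all genes passed for genotype in phagocytic cells. From protein-coding transcripts 38 genes passed in Apoe-/- cells and 1 for genotype in each sort, and from only the groups compared 2 for genotype in phagocytic cells.

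With a replicate block, 3 of the set passed in wild type, 7 in Apoe-/- and 9 over both, and among all genes 135, 255, 644 and, for genotype in phagocytic cells, 7. Same-numbered libraries of the sorted populations correlated at 0.040 to 0.423 in wild type and 0.063 to 0.214 in Apoe-/-, above 0.1 in 8 of the 11 pairs. What was correlated were deviations from group means. The mean correlation with other numbers (-0.132 to -0.008) is therefore pushed below 0 whenever the same-number one is above 0, and adds no separate evidence. Not each library matched its own number best. The labels do not say whether a number marks a shared pool, so the fit without the block was kept. Added after the data were seen, the dendritic marker sum as covariate gave 1 of the set and 76 of all genes in wild type, and leaving out the 2 satellite-rich libraries gave 16 of all genes in Apoe-/-. Limma on log2(FPKM + 1), also added, gave 0 of the set and 26 of all genes in Apoe-/-, and 2 (Egr1 and Btg2) and 82 over both, so that the calls of Jun, Egr2, Myc, Junb, Zfp36 and Zfp36l2 were lost. Leaving out 1 library gave 0 to 1 of the set in wild type, 2 to 4 in Apoe-/-, 5 to 8 over both and 0 to 1 for genotype in phagocytic cells, and among all genes 13 to 64, 18 to 89, 191 to 355 and 3 to 23. The causes were not tested. Genes with few reads, such as Tob1, Maff and Nr4a2, are limited by depth.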
